A study of Mus musculus with 16 samples.

Results

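The 7 genes described here, Cd74, H2-Aa, H2-Ab1, H2-Eb1, H2-DMa, H2-DMb1 and Ciita, make or control the MHC class II antigen presentation machinery. They were picked by name out of 45513 genes counted in the files, with results of these same libraries already known, namely their level in sorted tdTom+ against tdTom- epithelial cells and their spread between mice. All 7 passed the filter on low counts, as did 15323 genes in all. RNA was sequenced from the small intestine of 8 mice, aged 8 to 16 weeks per the methods of the study, which carry a tamoxifen-inducible CreERT2 recombinase at the Atoh1 gene, labelled Atoh1(WT)CreERT2, and the R26RtdTom reporter. Atoh1 is the transcription factor gene of the secretory lineages, so that the red protein tdTomato marks cells in which Atoh1 is or was expressed. From each mouse, 1 library was made of live EpCAM+tdTom+ cells and 1 of live EpCAM+tdTom- cells, which gave 8 libraries per fraction. Both fractions came from mice with the same genotype and the same tamoxifen treatment, given as 1 mg per day on 3 days per the labels, while the methods for RNA sequencing describe a single injection of 3 mg collected after 24 hours. The labels name no cage, litter, infection or diet for any mouse.

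MHC class II molecules are heterodimers of an alpha and a beta chain that carry peptides from endosomes to the cell surface, where CD4+ T cells read them. The invariant chain Cd74 holds the groove closed during transport, and the H2-DM heterodimer exchanges its remnant for peptide. Ciita is the coactivator that switches these genes on together. It is itself induced by interferon gamma, and does not bind DNA but docks on factors bound at the promoters. Dendritic cells, macrophages and B cells express class II constitutively, and enterocytes of the small intestine express it in response to microbes and interferon gamma.

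Of the members, 5 lie on chromosome 17 in the mouse MHC (GRCm38, bounds as in the files), H2-DMa at chr17:34135182-34139101, H2-DMb1 at chr17:34153072-34160230, H2-Ab1 at chr17:34263209-34269418, H2-Aa at chr17:34282744-34287827 on the minus strand and H2-Eb1 at chr17:34305877-34316199. Upstream stretches are shown for H2-Aa and H2-Eb1, because the members moved together between mice, and for the neighbouring class II chain gene H2-Ob, which was near 0 in these libraries. They come from RefSeq (GRCm38.p6), read 5′ to 3′ on the strand of the gene, with capitals marking matches to CTGATTGG or its core ATTGG (the Y box read by NF-Y) and to AGNNACNGA (the core of the X box read by RFX).
H2-Aa: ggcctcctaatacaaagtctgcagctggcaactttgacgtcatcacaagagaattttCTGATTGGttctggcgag
H2-Eb1: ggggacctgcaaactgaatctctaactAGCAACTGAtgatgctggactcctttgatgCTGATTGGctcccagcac
H2-Ob: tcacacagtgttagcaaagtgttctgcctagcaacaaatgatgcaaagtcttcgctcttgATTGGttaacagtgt
The H2-Aa stretch is chr17:34287857-34287931, the H2-Eb1 stretch chr17:34305748-34305822 and the H2-Ob stretch chr17:34238788-34238862. CTGATTGG began at base -51 from the RefSeq start of H2-Aa and at base -62 of H2-Eb1, where the X box letters stood at base -92. H2-DMb1 held ATTGG at base -61 and 2 matches to AGNNACNGA, the first at base -95. The letters did not separate expressed from near-0 chain genes, since H2-Oa and H2-Eb2, which were also near 0, held CTGATTGG at bases -46 and -103 and 2 and 1 matches to AGNNACNGA. Among 32851 promoters, on either strand of the 250 bases before the start, CTGATTGG was found in 3.83%, ATTGG in 33.8%, which includes every CTGATTGG, and AGNNACNGA in 14.7%. No entry was listed for Cd74, H2-Ab1 and Ciita, and both starts listed for H2-DMa lay outside the bounds of the gene in the files, so they were not used here.

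Total counts per library ranged from 17116405 to 25323567. Sort markers followed the labels, with Epcam at 863 CPM (counts scaled to a common library size with TMM factors) or more in every library. Muc2, the goblet cell mucin, reached at least 8059 CPM in tdTom+ and no more than 94.6 CPM in tdTom- libraries, and Alpi, an enterocyte brush border enzyme, was at 420 CPM or more in tdTom- and at 240 CPM or less in tdTom+ libraries. Both libraries of mice 5 and 7 stood apart from those of the other 6 mice in all 7 members, so results that rest on them are given with and without these mice. In addition, tdTom- of mouse 7 had the lowest absorptive and the highest crypt marker levels of its fraction, and tdTom- of mice 7 and 8 the most T cell transcripts.

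The class II chain genes were present in both fractions of every mouse and higher in tdTom-. H2-Aa, the alpha chain of the I-A molecule, ranged from 6.40 through a median of 22.0 to 255 CPM in tdTom- and from 0.977 through 2.75 to 65.6 CPM in tdTom+ libraries. H2-Ab1, its beta chain, ranged from 33.0 through 68.6 to 394 CPM in tdTom- and from 26.4 through 34.9 to 133 CPM in tdTom+. For both chains the 2 highest libraries of each fraction were those of mice 7 and 5, with H2-Aa at 216 and 44.9 CPM in mouse 5, and the next library had 28.6 CPM in tdTom- against 2.82 CPM in tdTom+. H2-Eb1, the beta chain of the I-E molecule, ranged from 11.1 through 29.8 to 234 CPM in tdTom- and from 2.26 through 5.24 to 80.2 CPM in tdTom+. Its partner alpha chain gene is the pseudogene H2-Ea-ps in these annotations, and it was at 0 reads in all 16 libraries. The fractions overlapped for each of the 3 chains when mice were pooled, since tdTom+ of mice 5 and 7 lay above tdTom- of the other 6 mice.

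Cd74, the invariant chain, was the most counted member in tdTom-, with 37.6, 114 and 1107 CPM as the lowest, median and highest tdTom- library. In tdTom+ it ranged from 10.02 through 23.5 to 361 CPM. Mouse 5 had 984 CPM in tdTom- against 291 CPM in tdTom+, and the third highest mouse at 156 and 31.8 CPM. Cd74 lies outside the MHC, at 60803848 to 60812646 on chromosome 18 of GRCm38. The peptide exchange genes were lower but had the same order of mice at the top. H2-DMa ranged from 5.37 through 11.0 to 64.5 CPM in tdTom- and from 1.77 through 3.77 to 22.1 CPM in tdTom+. H2-DMb1 ranged from 2.39 through 5.51 to 47.2 CPM in tdTom- and from 0.612 through 1.22 to 18.7 CPM in tdTom+. Reads of H2-DMb1 and of its near-identical neighbour H2-DMb2 could have been divided between the copies by the counting, so the level of each alone is uncertain.

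Ciita (chr16:10488178-10527564), the coactivator, ranged from 4.39 through 6.98 to 31.5 CPM in tdTom- and from 0.550 through 1.505 to 11.2 CPM in tdTom+ libraries. Mouse 5 had 29.1 CPM in tdTom- and 9.56 CPM in tdTom+, whereas the third highest mouse had 7.88 and 1.59 CPM. The depth behind the tdTom+ values was small, with 9 to 226 reads of Ciita and 11 to 373 reads of H2-DMb1 per library. The gene thus had the same 2 mice at the top as the genes it controls.

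**Figure D1:**
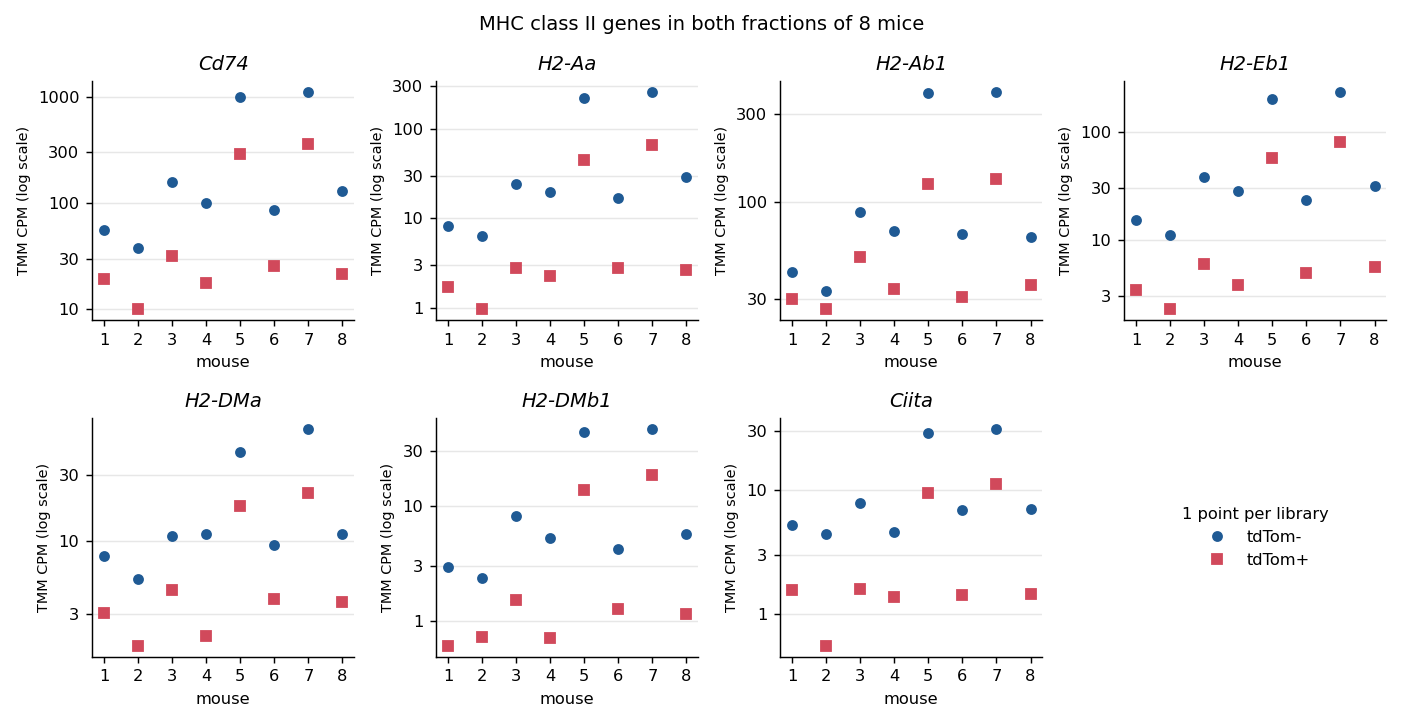
TMM CPM (log axis) of each of the 7 members in tdTom- (blue circles) and tdTom+ (red squares) libraries of mice 1 to 8, with 1 point per library. In every panel mice 5 and 7 are the highest in both fractions, and tdTom+ lies below tdTom- in each mouse, with Cd74 at 1107 and 361 CPM in mouse 7 and at 37.6 and 10.02 CPM in mouse 2.

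Per kilobase of exon, which allows genes to be compared, the order of levels in tdTom- was Cd74 with a median of 81.1 CPM per kb, H2-Ab1 with 41.9, H2-Eb1 with 25.2, H2-Aa with 11.7, H2-DMa with 6.73, H2-DMb1 with 3.71 and Ciita with 1.33 CPM per kb. Each step of this order held in all 8 tdTom- libraries, except that H2-Aa was below H2-DMa in mouse 1 and H2-DMa below H2-DMb1 in mouse 5. In tdTom+ the order began with H2-Ab1 at a median of 21.3 CPM per kb, above Cd74 at 16.6 CPM per kb in 6 of 8 libraries. The exceptions were mice 5 and 7, in which Cd74 was above H2-Ab1. H2-DMa at a median of 2.30 CPM per kb was likewise above H2-Aa at 1.47 CPM per kb in tdTom+ of every mouse but 5 and 7. H2-Ab1 was above H2-Aa, its partner in the I-A heterodimer, in both fractions, and in tdTom+ of mouse 7 the chains were at 81.4 and 35.0 CPM per kb.

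Within each mouse, all 7 members were lower in tdTom+ than in tdTom- cells, in 8 of 8 mice for each. The difference in log2 CPM (tdTom+ minus tdTom-, prior count of 2) was largest for H2-Aa, at -2.63 ± 0.49 (SD, n = 8 mice). It was -2.24 ± 0.44 for H2-Eb1, -1.99 ± 0.41 for Cd74, -1.99 ± 0.44 for Ciita, -1.96 ± 0.47 for H2-DMb1 and -1.53 ± 0.37 for H2-DMa. H2-Ab1 had the smallest difference, at -0.98 ± 0.46, ranging from -0.32 in mouse 2 to -1.62 in mouse 5. The SD of the difference within a mouse, 0.37 to 0.49, was below the SD between mice within a fraction for every member. In these bulk samples, fewer class II-expressing cells and less class II RNA per cell cannot be told apart.

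**Figure D2:**
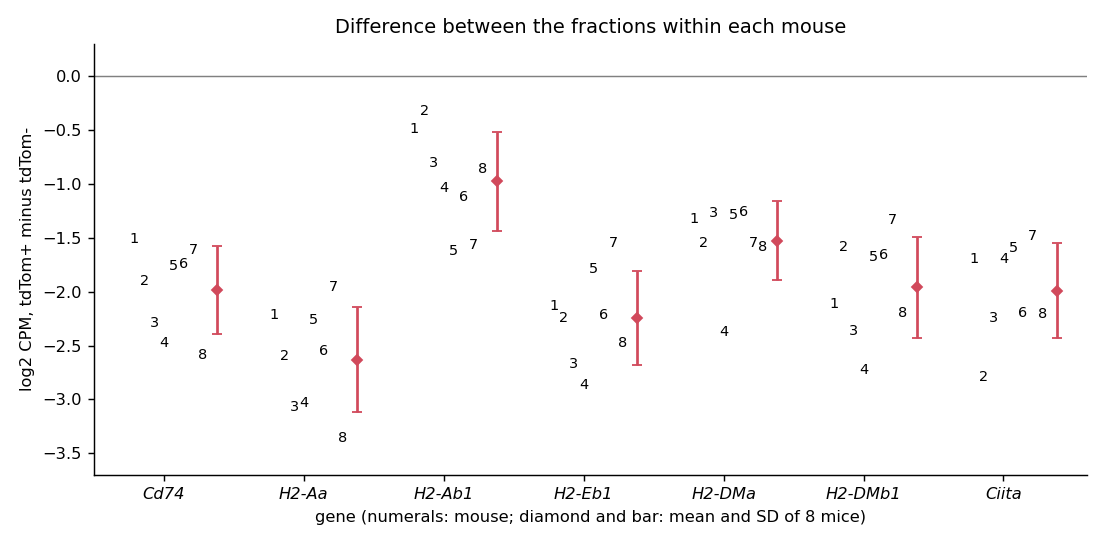
Log2 CPM in tdTom+ minus log2 CPM in tdTom- of the same mouse for each member, with numerals standing for the 8 mice and the red diamond and bar for their mean and SD. All points lie below 0, and H2-Ab1 is the member in which mice 5 and 7 have the largest difference, whereas in H2-Eb1 and Ciita these 2 mice have the smallest.

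Expressed as the tdTom+ level in percent of the tdTom- level of the same mouse, the members split in how mice 5 and 7 compared with the rest. H2-Ab1 was at 32.5% in mouse 5 and 33.8% in mouse 7, the lowest of the 8 mice, whose median was 51.9% and highest 80.1%. H2-Eb1 was at 28.8% and 34.2% in these mice, the highest of the 8, with a median of 20.8% and a lowest value of 13.4%. H2-Aa, H2-DMb1 and Ciita were also at their highest percent in mice 7 and 5, by a margin of less than 1 percentage point over the next mouse for H2-Aa and H2-DMb1, and Cd74 and H2-DMa were not ordered this way. On the log2 scale with its prior count the order held for H2-Eb1 and Ciita and not for H2-Aa and H2-DMb1. The 7 members summed were at 25.8% to 43.5% of the tdTom- level. The 4 absorptive genes Alpi, Fabp1, Apoa4 and Lct, summed, were at 7.48% to 13.6%, below the members in each mouse, and their part in the result was not tested.

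The fraction contrast itself is a description, since it was among the values by which the members were chosen. In the edgeR quasi-likelihood fit without a block for the mouse, 27.0% of 15323 genes were lower in tdTom+ at an adjusted p under 0.01, and 0 of the 7 members were, with log2 fold changes from -2.21 for H2-Aa to -1.30 for H2-Ab1 and standard errors of 0.56 to 0.98. With the mouse number as a block, in which both libraries of a mouse are compared with each other, the background was 30.0% and 7 of 7 members were called, with standard errors of 0.11 to 0.15. Without mice 5 and 7 and with no block, the background was 26.1% of genes and again 7 of 7 members were called, H2-Aa at -2.95 (SE 0.36) and H2-Ab1 at -0.82 (SE 0.21). DESeq2 without a block called 1 of 7 members, H2-Aa. The median log2 fold change of the members was -1.74 without and -1.93 with the block, beside 0.01 and 0.02 over all genes tested.

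**Figure D3:**
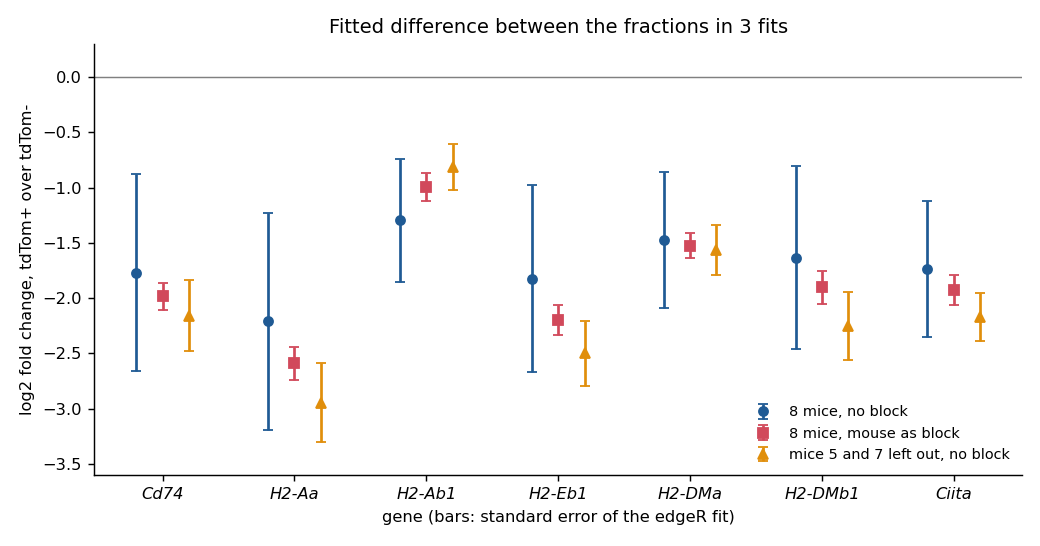
Log2 fold change of tdTom+ over tdTom- with its standard error in 3 edgeR fits, namely 8 mice without a block (blue circles), 8 mice with the mouse as block (red squares) and no block with mice 5 and 7 left out (orange triangles). Standard errors are 0.56 to 0.98 without and 0.11 to 0.15 with the block, and all values are below 0.

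The spread between mice was large for every member. The SD of log2 CPM over 8 mice ranged from 1.13 (Ciita) to 1.96 (H2-Aa) in tdTom- and from 0.93 (H2-Ab1) to 2.20 (H2-Aa) in tdTom+, beside a median of 0.27 and 0.21 over all genes tested. An SD of at least 1 log2 unit in both fractions was reached by 0.613% of genes and by 6 of 7 members, H2-Ab1 falling just short in tdTom+. The spread was among the values known when the members were chosen, and these shares support nothing by themselves.

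The same mice were high in both fractions. Mouse 7 was the highest and mouse 5 the second highest for 7 of 7 members in tdTom- and in tdTom+. At the other end, mouse 2 was the lowest for 7 members in tdTom- and for 6 in tdTom+, where mouse 1 was the lowest for H2-DMb1. Among all genes tested, 14.9% had the same 2 highest mice in both fractions, and 0.685% had mice 5 and 7. Mice 5 and 7 carry the 2 highest numbers of the 6 mice whose title numbers share a series, and mice 1 and 2 are the pair from the other series. What the series stand for was not given in the labels. Mice 3, 4, 6 and 8 share the series of mice 5 and 7 and had at most 156 CPM of Cd74 in tdTom-, whereas for the low mice 1 and 2 the mouse and its series cannot be told apart.

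The step below these mice set the members apart in size. From the second to the third highest mouse, log2 CPM dropped by 2.91 in tdTom- and 3.94 in tdTom+ for H2-Aa, by 2.66 and 3.19 for Cd74, by 2.39 and 3.26 for H2-Eb1 and by 2.41 and 3.10 for H2-DMb1. The step was smaller for Ciita, at 1.87 and 2.52, for H2-DMa, at 1.96 and 1.99, and for H2-Ab1, at 2.13 and 1.32. A step of at least 1 log2 unit in both fractions, below the same 2 mice, was found in 15 genes, 0.0979% of those tested, and in each of the 15 these were mice 5 and 7. The measure was chosen after the values were seen. The 15 genes were the 7 members, H2-DMb2, and Nlrc5, Gm12250, Igtp, Irgm2, Nos2, Tap1 and Ubd.

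**Figure D4:**
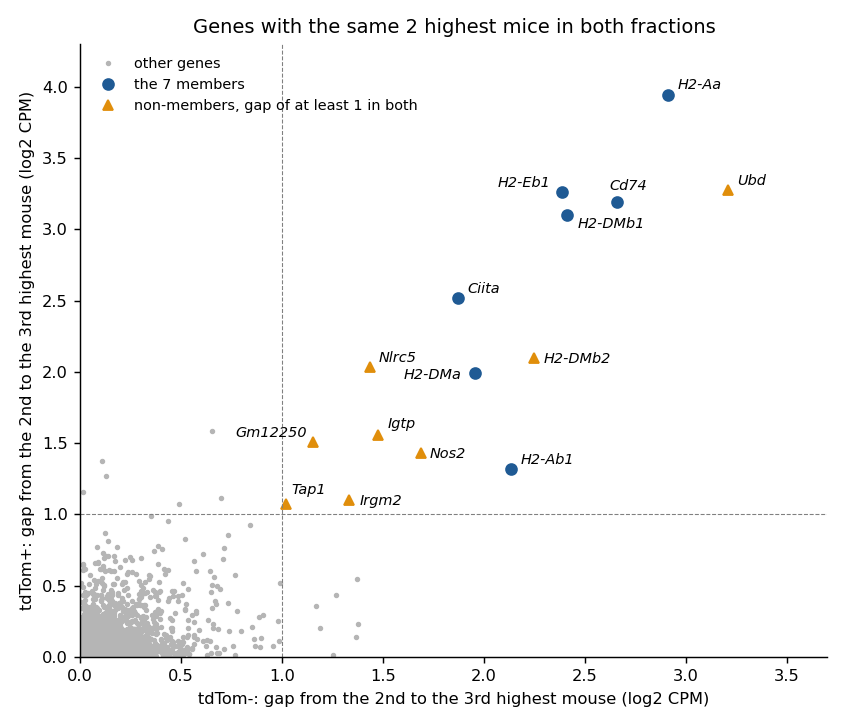
Step in log2 CPM from the second to the third highest mouse in tdTom- (horizontal axis) and tdTom+ (vertical axis) for the 2290 genes with the same 2 highest mice in both fractions. The 7 members (blue) and 8 other genes (orange) lie beyond 1 on both axes, and H2-Aa lies at 2.91 and 3.94.

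Whether the spread was also shared between fractions below this step was tested in the 6 mice other than 5 and 7, which are the 2 farthest from the median tdTom- level for each member. No coefficient is given over 8 mice, because the mice fall into separate clusters. The 6 mice are not free of this either. Mice 1 and 2, the pair from the other number series, had the lowest tdTom- levels for every member but Ciita. The coefficients and exact p below treat the 6 mice as exchangeable, so a gradual relation and a difference between the series cannot be told apart. Over the 6 mice Pearson's r between tdTom- and tdTom+ was 0.92 for H2-Eb1 (exact two-sided permutation p = 0.00972), 0.91 for H2-Aa (exact p = 0.0167), 0.84 for H2-Ab1 (exact p = 0.0319) and 0.83 for Cd74 (exact p = 0.0347). It was 0.74 for H2-DMb1 (exact p = 0.114), 0.63 for Ciita (exact p = 0.0708) and 0.60 for H2-DMa (exact p = 0.203). An unadjusted exact p under 0.05 was thus reached by 4 of 7 members, beside 11.0% of 15144 genes. After Benjamini-Hochberg adjustment of the exact permutation p over these genes none of the members passed, with adjusted values from 0.322 to 0.664, and neither did any other gene. The smallest exact permutation p that 720 orders of 6 mice can give is 0.00139. An adjusted value under 0.05 over 15144 genes was therefore nearly out of reach, and nothing is read from this outcome. Spearman's rho ranged from 0.37 for H2-DMa to 0.94 for H2-Eb1 (lowest exact permutation p = 0.0167). The median r was 0.83 for the members and 0.34 over all genes. In the test over all 8 mice, 0.907% of genes passed and 3 of 7 members did (H2-Aa, H2-Ab1 and H2-Eb1). Nothing is read from it, because the mice fall into separate clusters. No gene passed without any 1 of the 8 mice, but fewer mice allow fewer orders, which made a pass harder to reach.

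The members also followed each other within a fraction in these 6 mice. Here too mice 1 and 2 were the low pair in tdTom- for every member but Ciita. A split between the number series and a gradual relation therefore cannot be told apart. Pearson's r was above 0 in all 21 pairs of members in each fraction, from 0.61 to 0.99 with a median of 0.94 in tdTom- and from 0.37 to 0.96 with a median of 0.79 in tdTom+, as a description over 6 libraries that share their scaling. Against Cd74, r in tdTom- was highest for H2-Eb1, at 0.99 (exact permutation p = 0.00139, the smallest that a single order of 6 mice can give). It was 0.98 for H2-DMb1, 0.97 for H2-Aa, 0.96 for H2-Ab1, 0.94 for H2-DMa and 0.77 for Ciita. In tdTom+ the order was H2-Eb1 with 0.93, H2-DMa with 0.92, H2-Aa with 0.91, Ciita with 0.89, H2-Ab1 with 0.78 and H2-DMb1 with 0.73. The exact permutation p against Cd74 in these 6 mice was under 0.05 for 5 of the 6 other members in tdTom-, beside 2.60% of genes, and for 4 of 6 in tdTom+, beside 2.50%. Over 8 mice, no gene passed the adjusted test of correlation with Cd74 in either fraction, although 768 genes in tdTom- and 910 in tdTom+ had an unadjusted exact p under 0.05 (593 and 608 by Spearman's rho).

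Of the other class II chain genes, 1 of 5 passed the filter on low counts. This was H2-DMb2, the second H2-DM beta chain, at 0.651 to 8.38 CPM in tdTom- and 0.167 to 3.15 CPM in tdTom+ libraries, with mice 5 and 7 at the top of both. H2-Oa and H2-Ob, which make the H2-O inhibitor of H2-DM found mainly in B cells, reached at most 0.456 and 0.337 CPM in tdTom-, and H2-Eb2 reached 0.228 CPM. H2-Oa was at 0 reads in all tdTom+ libraries, which allows up to 0.191 CPM in the shallowest of them at a floor of 3 counts that covers counting error only. Their highest tdTom- libraries were those of mice 7 and 8 for H2-Oa and H2-Ob, not of mouse 5.

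The factors bound at class II promoters did not follow the members. None of the 7 (Rfx5, Rfxap, Rfxank, Nfya, Nfyb, Nfyc and Creb1) had mice 5 and 7 at the top of both fractions. Rfx5, a subunit of the RFX complex, was at 10.3 and 11.4 CPM in tdTom+ of these mice, within the range of 10.3 to 13.9 CPM of that fraction, and at 14.0 CPM in tdTom- of mouse 5, the highest there. Between fractions, 1 of 7 was higher in tdTom+ (Nfyb, log2 fold change 0.89, SE 0.06) and 1 lower (Nfyc, -0.53, SE 0.05) at an adjusted p under 0.01 in edgeR, with a list median of 0.14 beside 0.01 over all genes. The genes that process antigen in endosomes also lacked the pattern, in 0 of 8 past the filter. Of these 8, Ctss, the protease that trims the invariant chain, was lower in tdTom+ (-1.92, SE 0.13), as were Ctsb, Ifi30 and March8, and Lgmn (2.40, SE 0.17) and Sppl2a, which cleaves the Cd74 remnant, were higher.

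Many genes induced by interferon had the same mice at the top as the members. Beside the background of 0.685%, and in a list that was like all others written with results of these data known, mice 5 and 7 were the 2 highest in both fractions for 12 of the 17 interferon-induced genes past the filter, among them Tap1 and Tap2 of the peptide transporter, Psmb8 and Psmb9 of the immunoproteasome, Nlrc5, the class I counterpart of Ciita, and the GTPases Gbp2, Gbp7, Irgm1 and Igtp. Tap1 was at 137 and 151 CPM in tdTom- of mice 5 and 7 and at 60.8 to 67.7 CPM in the others. A step of at least 1 log2 unit below these mice in both fractions was found in 3 of the 17, Nlrc5, Igtp and Tap1. Over all genes tested this share was 0.0979%. In tdTom- the step was only 0.0007 log2 units for Tap2 and 0.01 for Cxcl9. B2m, Usp18, Isg15, Ifit1 and Gbp3 did not have these mice at the top of both, and Ifit1 was highest in tdTom- of mouse 5 with 38.8 CPM and at 13.2 CPM in mouse 7. Ifng, the cytokine gene, was at no more than 2 reads in any library, under the same floor.

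The direction between fractions differed within this group. In edgeR without a block, 6 of the 17 were lower in tdTom+, namely B2m (-1.15, SE 0.15), Ifit1, Psmb9, Tap2, Isg15 and Psmb8, and 2 were higher, Gbp2 (4.48, SE 0.66) and Gbp7 (1.25, SE 0.30), at an adjusted p under 0.01. The list median was -0.68 beside 0.01 over all genes, and with the block 9 were lower and 5 higher. Gbp2 was at 17.5 and 54.1 CPM in tdTom+ of mice 5 and 7, and at 0.730 and 2.004 CPM in tdTom-. It thus shared the mice of the members and had the opposite order of fractions.

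The 10 genes most like the members, by the correlation of their deviations from the fraction mean with the mean standardised deviation of the 7 members over 16 libraries, were Psmb9 (r = 0.97), Nos2 (0.97), Tap1 (0.97), Pla2g16 (0.96), Igtp (0.95), H2-Q6 (0.94), Psmb8 (0.94), Ifi47 (0.93), Ubd (0.93) and Psme2 (0.93). These coefficients are a description that mice 5 and 7 dominate, so that 10 of 10 genes had these mice as the highest in both fractions follows from the choice. With these mice left out, r over 12 libraries ranged from 0.18 for Ifi47 to 0.82 for Tap1. Ubd, a ubiquitin-like gene, had the largest step, at 34.3 and 48.2 CPM in tdTom- of mice 5 and 7 against 0.804 to 3.63 CPM in the others. Nos2, the inducible nitric oxide synthase, was at 36.2 and 28.7 CPM against 4.01 to 8.86 CPM. H2-Q6 belongs to a family of similar class I genes, so its counts are uncertain.

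Of 11 listed genes of the epithelial response to microbes, 6 passed the filter. Mice 5 and 7 were the 2 highest in both fractions for 5 of the 6 (Reg3b, Reg3g, Duox2, Duoxa2 and Nos2), beside 0.685% of all genes. Only Nos2 had a step of at least 1 log2 unit in both fractions. For Reg3b the step was 0.05 in tdTom- and 0.19 in tdTom+. Reg3g, an antimicrobial lectin, was at 1693 and 1145 CPM in tdTom- of mice 5 and 7, and its next highest library was at 734 CPM in mouse 1. Reg3b was lower in tdTom+ (-2.23, SE 0.45) and Fut2, the fucosyltransferase of the epithelial surface, higher (1.96, SE 0.27). Of 6 genes of co-stimulatory and checkpoint ligands for T cells, Cd80, Cd86, Cd40 and Pdcd1lg2 did not pass the filter. Neither Icosl, at 7.91 to 12.7 CPM, nor Cd274 passed the test between fractions or had mice 5 and 7 at the top of both. Cd274 had them at the top of tdTom- only, at 2.19 and 4.24 CPM, with mouse 4 next at 2.11 CPM.

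**Figure D5:**
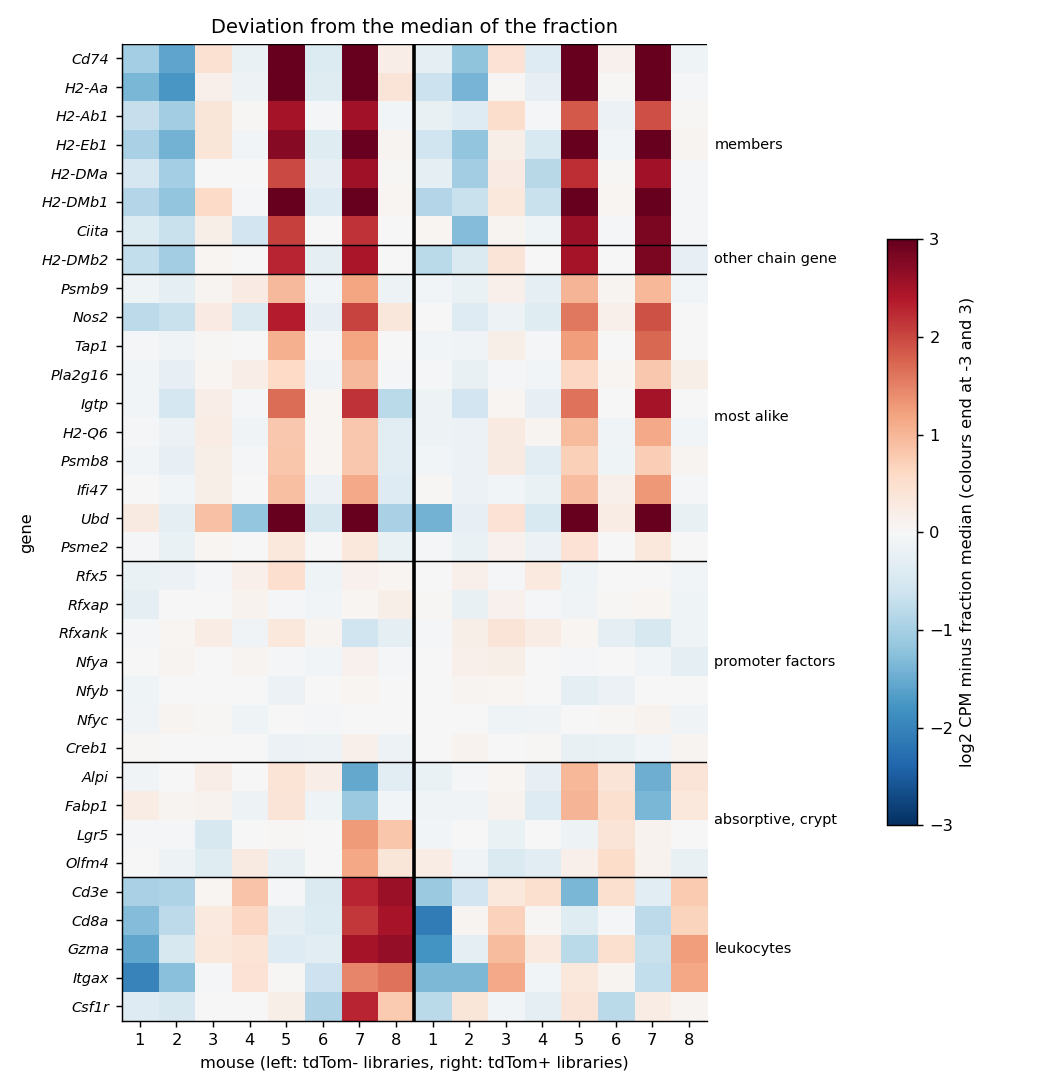
Log2 CPM minus the median of the fraction (colour, ending at -3 and 3) for the members, H2-DMb2, the 10 most alike genes, the promoter factors and 9 markers in tdTom- (left) and tdTom+ (right) libraries of mice 1 to 8. Red columns at mice 5 and 7 run through the first 3 groups on both sides, and the leukocyte markers are high in tdTom- of mice 7 and 8 instead.

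Markers of professional antigen presenting cells, as a sum, had another order of mice. Summed over 13 markers without Lyz2, which Paneth cells also express, they were at 8.81 to 33.4 CPM in tdTom- and 6.30 to 12.7 CPM in tdTom+ libraries, and of the 14 markers with Lyz2 included, 10 were below the filter. Mouse 7 had the highest sum in tdTom-, followed by mouse 8 with 25.5 CPM, and mouse 5 had 12.7 CPM, within the range of 8.81 to 16.2 CPM of the other 5 mice. In tdTom+ the sum was 8.33 CPM in mouse 5 and 6.30 CPM in mouse 7, the latter the lowest of the fraction. Ptprc, which T cells also express, gave 12.2 CPM of the sum in tdTom- of mouse 8 and 0.751 CPM in tdTom+ of mouse 7. Flt3 was at 2.05 to 3.97 CPM in all libraries. The sum is therefore not a measure of antigen presenting cells alone. Of the 14 markers, C1qa, Csf1r and Itgax, named after their values were seen, reached 2.19, 3.83 and 4.42 CPM in tdTom- of mouse 7. They were at 0.319, 0.821 and 1.60 CPM in mouse 5. Itgax was higher still in tdTom- of mouse 8, at 5.02 CPM. Flt3 and Ms4a1 went the other way and were lowest of their fraction in tdTom- of mouse 7, at 2.05 and 0.0911 CPM. Cd74 in tdTom- of mice 7 and 5 was at 1107 and 984 CPM, and the part of antigen presenting cells in it was not tested.

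Markers of intraepithelial T cells, summed over 8 genes, were at 123 CPM in tdTom- of mouse 7 and 136 CPM in mouse 8, where Cd74 was at 130 CPM, and at 19.98 CPM in mouse 5. In tdTom+ the sum ranged from 3.62 to 26.5 CPM and was highest in mouse 8. Of the 7 T cell genes past the filter, 4 were lower in tdTom+ at an adjusted p under 0.01 in edgeR without a block and 6 with it. Without mice 5 and 7 these counts were 0 and 5, and the list median was -1.34 without a block, beside -1.83 with all 8 mice. Absorptive markers in tdTom- were lowest in mouse 7, at 5992 CPM summed over 4 genes, and highest in mouse 5, at 19008 CPM. Crypt and dividing cell markers were highest in mouse 7 with 2341 CPM, and mouse 5 had 924 CPM within a range of 886 to 2341 CPM. Mice 5 and 7, both high in the members, were the highest and the lowest in the absorptive sum of tdTom-, with mouse 6 close to mouse 5 at 18964 CPM. The part of absorptive cells in the class II levels was not tested. With mice 7 and 8 left out and no block, 27.6% of genes were lower in tdTom+. As with all 8 mice, 0 of 7 members were called. This fit still holds mouse 5, with Cd74 at 984 CPM in tdTom-, and so a wide spread between mice. Nothing on T cells is read from it.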

How the data were processed

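Small intestinal epithelium was sorted into live EpCAM+tdTom+ and EpCAM+tdTom- cells, and stranded mRNA libraries (TruSeq) were sequenced as single-end reads of 50 bp. The authors aligned reads to GRCm38 with TopHat2 (2.1.1 in the submitters' processing notes) and deposited raw counts per Ensembl gene, made by featureCounts 1.5.0-p1 per the file headers (Subread 1.5.2 in the notes) over exons on the reverse strand. Symbols came from GENCODE M21 and matched 44585 of 45513 identifiers.

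Groups came from the group label and mouse numbers from the sample titles. Per the design text each mouse gave a library of each kind, and deviations from the fraction mean correlated at 0.24 to 0.63 between libraries of the same number (mean -0.06 between different numbers). No 2 libraries held identical counts. Genes were filtered with filterByExpr and scaled with TMM in edgeR 4.0.16 (R 4.3.3). Fractions were compared with the quasi-likelihood test without a block, as the methods of the study name none, with Benjamini-Hochberg adjustment over all genes and a threshold of 0.01. Spread shared between fractions, or with Cd74, was tested per gene by Pearson's r of log2 CPM (prior count of 2) with an exact permutation test over all 720 orders of 6 mice or 40320 orders of 8, adjusted over all genes with a threshold of 0.05. Both procedures were tested on simulated data.

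Members, gene lists and tests were chosen with earlier results of these data known. The text names all members, list genes past the threshold or among the 4 most abundant others, and the 10 most alike genes with a mean of at least 5 CPM; H2-DMb2, Nlrc5, Gm12250, Irgm2, Ifng, C1qa, Csf1r, Itgax and other list genes below the threshold were named after their values were seen. Alternatives were scaling by relative log expression or by total counts, no filter, thinning to the smallest total, the replicate block, DESeq2 1.42.0, a threshold of 0.05, a prior count of 0.5, Spearman's rho, CPM without logarithm, leaving out each mouse, and the 6 mice of one number series. Leaving out mice 5 and 7, or 7 and 8, was added after seeing the data. A few list genes and 1 promoter motif are not reported here.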

Additional observations from a re-analysis of the deposited data

Results flagged for a closer look

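In 166 sets of 8 libraries (each member and list gene past the filter, in each fraction), the highest or lowest library was compared with its nearest neighbour as a share of the whole range, and 11 sets exceeded the 95% critical value of Dixon for 8 samples. Chance flags about 1 set in 20. None of the 11 was a member, since the members had 2 high mice in each fraction rather than 1, and 10 of them were libraries of mouse 7.

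In tdTom- of mouse 7, Alpi (0.632), Fabp1 (0.638) and Lct (0.588), markers of absorptive cells, stood apart as the lowest, and Olfm4 (0.527) and Birc5 (0.532), a stem cell and a cell division gene, as the highest. In the same library Cxcl9 (0.595), a chemokine gene induced by interferon gamma, was the highest. In tdTom+ of mouse 7, Lct (0.606) and Ifngr1 (0.557), a chain of the interferon gamma receptor, were the lowest, and Irgm1 (0.603) and Lgmn (0.621) the highest. Tap2 (0.546) was the highest in tdTom- of mouse 5. The part of these differences in the class II levels of mouse 7 was not tested.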

How the results depend on the processing

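The difference between the fractions of the 7 members was below 0 in all 126 refits of a member under an alternative. The count of members called, 0 without a block, was 7 with the replicate block, 7 with mice 5 and 7 left out, 7 with both, 1 with DESeq2 and 2 at an adjusted p under 0.05, and 0 to 1 when each mouse was left out in turn (1 without mouse 7). Among all genes, 7606 were called and 8556 with the replicate block, and the count ranged from 6349 to 8953 over the alternatives. The 139 genes that varied together in both fractions over 8 mice became 92 with total counts in place of TMM and 0 without the filter, by Spearman's rho, in the 6 mice of one number series and without any 1 mouse (0 to 0). Fewer mice allow fewer orders, and the cause of the other changes was not tested. Genes correlated with Cd74 numbered 0 in both fractions under every alternative. Of 40 list genes called between fractions, none of 720 refits reversed and 81 no longer passed. Low counts limit Ciita, H2-DMb1 and H2-Aa in tdTom+, with as few as 9, 11 and 16 reads in a library.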
